A study of Mus musculus with 24 samples.

Results

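The peaks of the histone mark H3K27ac in female myofibers 6 days after the last of 5 weekly prednisone injections were compared with those of vehicle-treated females. Autosomal peaks were taken from the peak list of each group, which gave 121551 day 6 peaks and 37614 vehicle peaks of the 462829 autosomal peaks in the 8 lists of the series. A day 6 peak was called gained when no vehicle peak overlapped it by 1 bp or more and kept when a vehicle peak did. A vehicle peak without such an overlap was called lost. These names describe which list holds a peak and are not levels of H3K27ac.

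The study used these samples to follow changes in chromatin over the days after weekly prednisone, in males and females. Both groups were C57BL/6 females, 10 weeks old at the start. Treated mice received 1 mg/kg prednisone intraperitoneally once per week and the controls received vehicle alone. By the paper's methods, injections were daily, and weekly-treated mice received vehicle on the other days of the week. Myofibers of the quadriceps were freed with collagenase and filtered, and each group had 2 H3K27ac libraries and 1 input library. How the pair of libraries entered each list is not given in the sources used here, so no comparison here could be tested or given an error between replicates. Percentages carry Wilson 95% intervals, which cover counting error only.

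Acetylation of lysine 27 on histone H3 is placed by the acetyltransferases p300 and CBP at active promoters and enhancers. Prednisone is converted to prednisolone, which binds the glucocorticoid receptor (GR). The receptor then moves to the nucleus, binds DNA and recruits such acetyltransferases or corepressors. In skeletal muscle GR is known for switching on genes of protein breakdown, fuel choice and stress signaling.

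Sequences are shown for 6 peaks so that the kinds of site can be seen beside the counts. They are the gained promoter, intron and intergenic peaks with the highest findPeaks Score (the score that the caller gives a peak) and low input, the lost peak of that kind, and kept peaks at Tnnc1 and within Fkbp5. Each is the plus strand of mm10 around the peak center, without annotated exons. Capitals mark matches on either strand to 5 motifs, which are ACANNNTGT (a GR half-site pair), TGANTCA (AP-1), CANNTG (E-box), AAGGTCA (estrogen-related receptor, ERR) and the MEF2 consensus.
Gnai3 promoter, gained, chr3:108146153-108146414: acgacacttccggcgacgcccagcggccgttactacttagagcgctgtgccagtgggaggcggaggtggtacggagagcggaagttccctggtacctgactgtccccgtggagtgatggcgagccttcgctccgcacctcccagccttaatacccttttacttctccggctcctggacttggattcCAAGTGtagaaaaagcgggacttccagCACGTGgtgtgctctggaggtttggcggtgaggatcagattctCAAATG
Twf1 intron, gained, chr15:94589568-94589751: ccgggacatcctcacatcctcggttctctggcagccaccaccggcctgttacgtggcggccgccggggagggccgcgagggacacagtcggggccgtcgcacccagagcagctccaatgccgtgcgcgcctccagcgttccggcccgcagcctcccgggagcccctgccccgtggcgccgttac
Intergenic near Sik1, gained, chr17:31856936-31857235: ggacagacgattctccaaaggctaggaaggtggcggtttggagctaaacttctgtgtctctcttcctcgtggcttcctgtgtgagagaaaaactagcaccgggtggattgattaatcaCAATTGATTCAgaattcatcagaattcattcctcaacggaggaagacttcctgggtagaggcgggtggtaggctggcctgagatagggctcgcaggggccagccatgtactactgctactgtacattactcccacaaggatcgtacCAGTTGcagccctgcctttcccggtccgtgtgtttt
Ugt1a1 intron, lost, chr1:88214068-88214367: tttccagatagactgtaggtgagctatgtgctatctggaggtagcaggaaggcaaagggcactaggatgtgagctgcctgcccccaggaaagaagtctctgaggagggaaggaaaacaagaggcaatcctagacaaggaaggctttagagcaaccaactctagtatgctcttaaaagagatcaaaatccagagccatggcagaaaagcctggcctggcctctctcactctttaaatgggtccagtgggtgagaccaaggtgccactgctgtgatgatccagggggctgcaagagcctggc
Upstream of Tnnc1, kept, chr14:31206096-31206395: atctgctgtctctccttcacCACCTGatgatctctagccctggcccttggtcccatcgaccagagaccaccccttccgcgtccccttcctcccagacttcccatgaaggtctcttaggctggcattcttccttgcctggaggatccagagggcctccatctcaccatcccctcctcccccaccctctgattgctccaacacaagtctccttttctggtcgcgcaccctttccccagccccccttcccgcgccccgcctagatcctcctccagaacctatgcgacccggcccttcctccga
Fkbp5 intron, kept, chr17:28421226-28421525: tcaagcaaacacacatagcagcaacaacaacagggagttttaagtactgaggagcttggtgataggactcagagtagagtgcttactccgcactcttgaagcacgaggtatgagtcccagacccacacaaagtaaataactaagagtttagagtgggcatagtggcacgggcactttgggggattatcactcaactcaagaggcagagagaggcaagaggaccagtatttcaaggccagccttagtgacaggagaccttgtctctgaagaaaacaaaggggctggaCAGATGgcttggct
The Gnai3 stretch (262 bases, 58.4% G+C) held 3 E-box matches and the Twf1 stretch (184 bases, 73.9% G+C) held a match to none of the 5. The stretch near Sik1 held 2 E-box matches and 1 AP-1 match. The lost Ugt1a1 stretch held none, and the kept stretches at Tnnc1 and in Fkbp5 held 1 E-box match each. None of the 6 stretches held ACANNNTGT. A match is a description of the letters in these windows. The gained peaks at Twf1 and near Sik1 were centered 0.107 and 1.28 kb from a protein-coding start, against a median of 23.2 kb for all gained peaks.

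H3K27ac depth was similar, with 27.5 M tags for vehicle and 30.6 M at day 6. Input depths were not compared. H3K27ac tags were scaled to input depth in the vehicle list, and input tags to H3K27ac depth at day 6. Median fold over input was 10.7 for vehicle, where the median peak held 1 input tag, and 5.02 at day 6. At the best promoter peaks of genes with one in both lists, defined below, the order was the other way, with 6.65 and 18.9. The lists differed in how many tags lay in autosomal peaks, which was 7.74% for vehicle and 46.8% at day 6. A single peak region on chromosome 2 held 2.59% of all vehicle tags and 1.74% of all day 6 tags. The vehicle peaks covered 26.1 Mb and the day 6 peaks covered 157 Mb. This gap bears on every count below. With 1 list per group, treatment and differences between immunoprecipitations cannot be told apart.

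Day 6 gained 108752 peaks, which were 89.5% of its list (95% confidence interval 89.3%–89.6%), and kept 12799. Of the vehicle peaks, 22393 were lost (59.5%, 59.0%–60.0%) and 15221 were kept. Because the day 6 list was 3.23 times as long, it was also cut to its 37614 peaks with the highest Score. At this equal length 29537 day 6 peaks were gained (78.5%, 78.1%–78.9%) and 27981 vehicle peaks were lost (74.4%, 73.9%–74.8%). The cut fell within ties at a Score of 15, a value that 43170 day 6 peaks reached, and the peaks just inside and just outside it had the same normalized tag count of 16.3 per 10 M tags. Of the peaks lost at equal length, 5588 overlapped a day 6 peak of the full list (20%). At the 1 bp limit itself few peaks were close, since 497 gained peaks lay within 100 bp of a vehicle peak and 561 kept day 6 peaks were covered by 100 bp or less.

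The vehicle peaks that were lost stood low in their own list. Of the 3762 vehicle peaks with the highest Scores (14 to 506), 87.1% were kept, against 23.0% of the 3761 in the last of 10 bins (Score 10). Among day 6 peaks the same bins fell from 37.0% to 1.40%. Between these ends the vehicle share did not fall steadily, with 25.7% in the fifth bin and 50.7% in the next, where the median widths were 500 and 633 bp. Scores were whole numbers with many ties, and within a tie peaks were ordered by normalized tag count. By width the kept share rose at every step. A wider peak has more bases in which a 1 bp overlap can fall, so the rule itself links width and kept share. The part of this link in these shares and in the widths below was not tested. Vehicle peaks of 500 bp, the narrowest width, were kept in 25.5% of cases, those of over 1000 to 2000 bp in 90.4% and all 45 above 5000 bp in 100% (92.1%–100%).

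**Figure D1:**
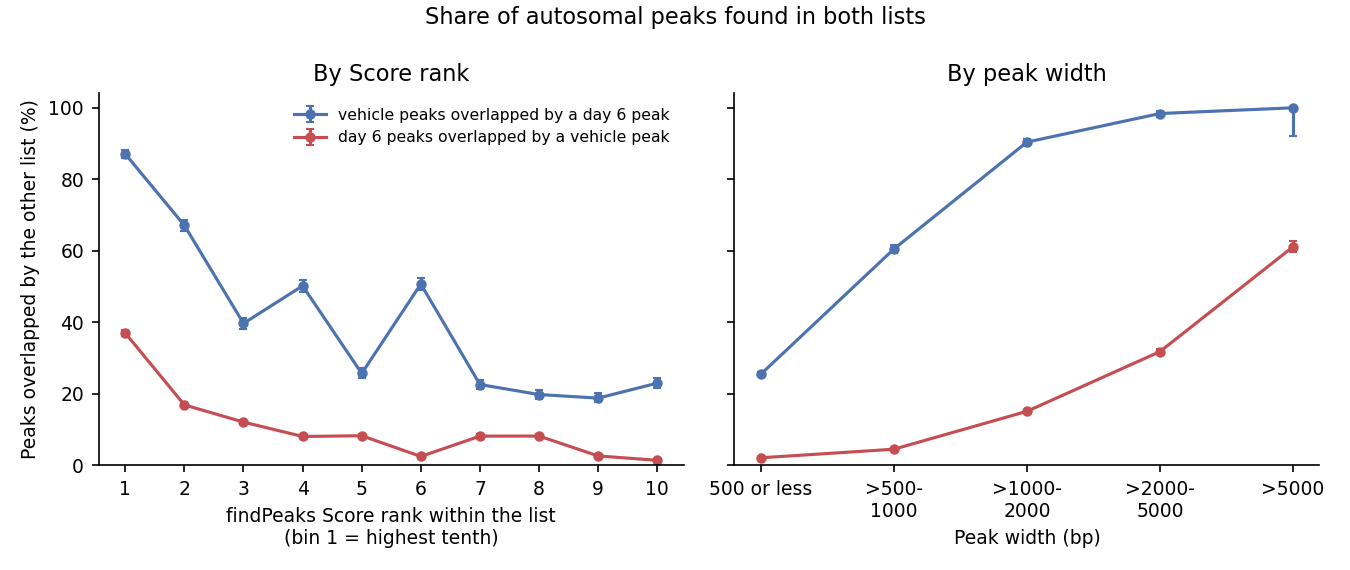
Percentage of autosomal peaks overlapped by the other list (y axis) against findPeaks Score rank in 10 bins (left) and peak width in bp (right), for vehicle peaks (blue) and day 6 peaks (red). Points are shares with Wilson 95% intervals. Kept shares run from 87.1% to 23.0% for vehicle and from 37.0% to 1.40% for day 6 between the first and last bin, and rise with width in both lists.

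Kept day 6 peaks lay at promoters more often than gained peaks did, and lost peaks did so least often. By the position of the peak center, promoters, taken as the 1 kb upstream and 100 bp downstream of transcription starts, held 3.72% of gained peaks (3.61%–3.84%), 19.9% of kept day 6 peaks and 0.719% of lost peaks. Introns held 54.4% of gained, 51.7% of kept day 6 and 47.0% of lost peaks. Intergenic sequence held 30.3%, 17.1% and 48.7%. Read from the other side, 95.2% of vehicle promoter peaks were kept (94.4%–95.9%), against 43.6% of intron peaks and 19.6% of intergenic peaks. At equal length promoters held 7.07% of gained, 23.7% of kept day 6 and 3.66% of lost peaks, so the order was the same.

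**Figure D2:**
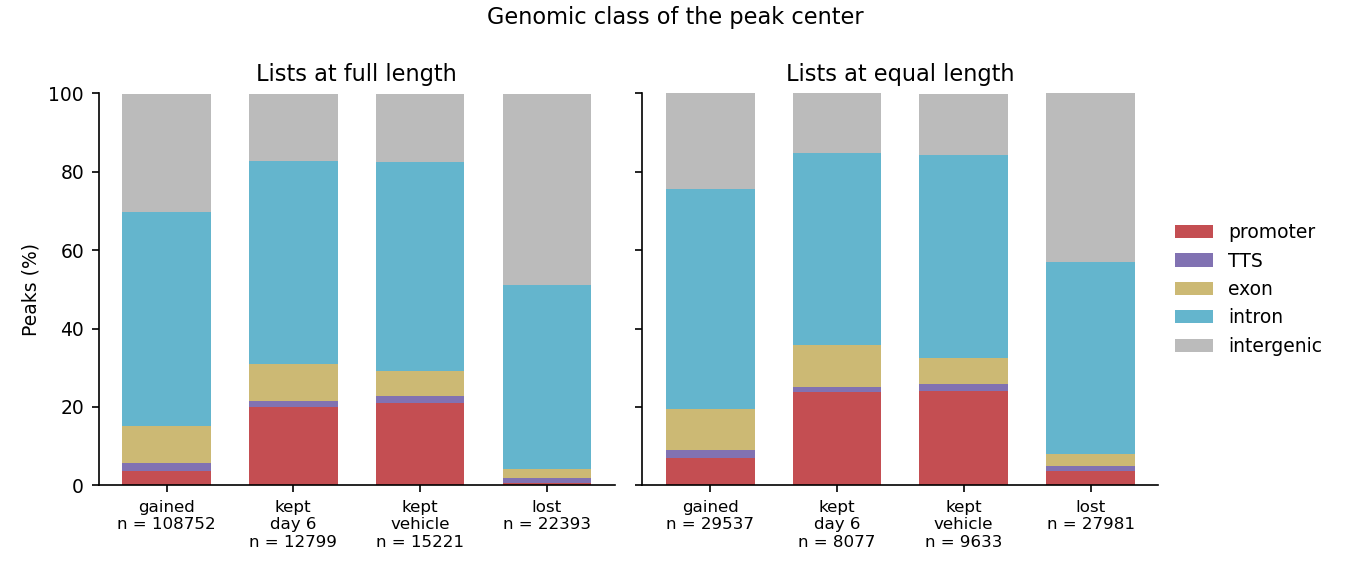
Percentage of gained, kept and lost autosomal peaks (y axis) whose center lay in a promoter, transcription termination site (TTS), exon, intron or intergenic sequence, at full list length (left) and at equal list length (right). Kept peaks hold the largest promoter share in both panels, 19.9% and 23.7% of day 6 peaks, and lost peaks hold the largest intergenic share, 48.7% and 43.1%.

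Gained peaks had a median width of 633 bp (quartiles 500 and 1126), while kept day 6 peaks had a median of 2169 bp (1255 and 4003). The vehicle peaks under the same kept regions had a median of 641 bp, and lost peaks had a median of 500 bp, with 85.0% of them at 500 bp. Peaks of 5 kb or more numbered 1528 among gained peaks (1.41%) and 2406 among kept day 6 peaks (18.8%). Gained peaks together held 23.9% of all day 6 tags and kept peaks held 22.9%, although gained peaks outnumbered them. A median of 31.0% of a kept day 6 peak was covered by vehicle peaks, and 1787 kept day 6 peaks held 2 or more vehicle peaks, up to 12.

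**Figure D3:**
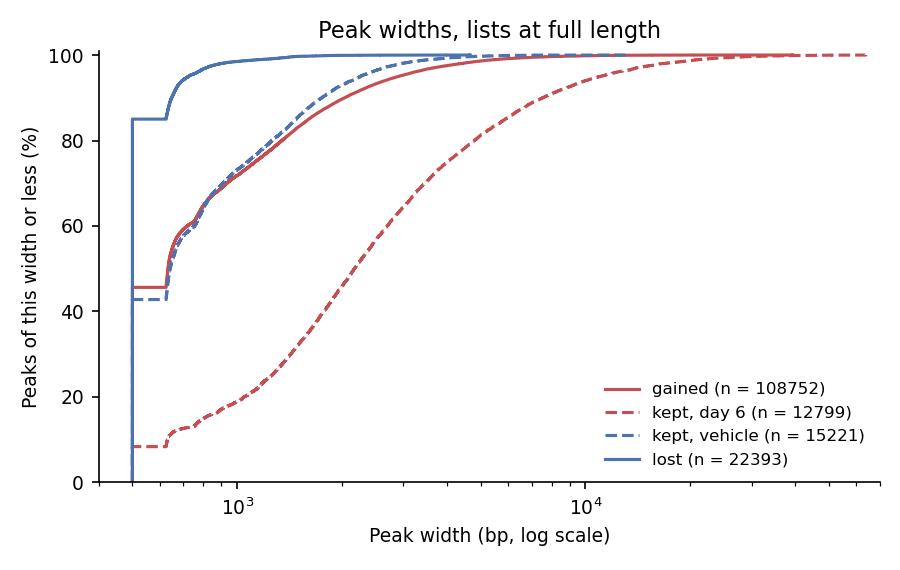
Cumulative percentage of peaks (y axis) by width in bp (x axis, log scale), for gained and kept day 6 peaks (red solid and dashed) and for kept and lost vehicle peaks (blue dashed and solid). The curve of kept day 6 peaks lies to the right, with a median of 2169 bp, and 85.0% of lost peaks sit at 500 bp.

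The widest peaks were looked at after their values were seen. The widest gained peak spanned 39445 bp at Niban2 (chr2:32873703-32913148), with 1285 tags per 10 M. Others had as nearest gene Iffo2 (25299 bp), Septin9 (22957 bp), which encodes a cytoskeletal GTPase, and Card10 (22105 bp). The eighth widest lay over the start of Akt1 (chr12:112660566-112680871, 20305 bp), the kinase downstream of PI3K. The widest kept day 6 peaks included those nearest to Slc66a1 (63850 bp), Myh9 (53209 bp), the nonmuscle myosin heavy chain, Tnnt3 (47028 bp), the fast skeletal troponin T, and Asb2 (46208 bp), a muscle ubiquitin ligase adaptor.

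The gained peaks with the highest Scores lay at or beside promoters and spanned 883 to 1990 bp. The first lay at Gnai3 (chr3:108145569-108146959, Score 256, fold over input 61.3), which encodes an inhibitory G protein subunit. Also among the first 10 was Nr4a2 (Score 173, chr2:57123402-57124721), an orphan nuclear receptor whose other start had a vehicle peak. Dph5 (Score 164), Cpsf7 (Score 156), a pre-mRNA cleavage factor, Lrr1 (Score 153), Twf1 (Score 151), an actin-binding protein, and Coq5 (Score 140), an enzyme of coenzyme Q synthesis, were also among the first 10. All 10 had their center within 0.558 kb of a transcription start and were the same 10 when peaks of high input were left out and at equal length.

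The lost peaks with the highest Scores included peaks of high input. The first, in intergenic sequence on chromosome 9 (chr9:2999925-3000425, Score 330), had 1243 input tags, against a median of 1 for lost peaks. The next 4 lay in Sfi1 on chromosome 11, with 36 to 91 input tags each. With peaks of input density above the 99th percentile left out, the first was in an intron of Ugt1a1 (chr1:88212658-88215777, Score 26, 28 input tags), a glucuronidation enzyme of the liver. Peaks at Trpm8 (Score 22), the cold-sensing channel, near Ccl28 (Score 21), a mucosal chemokine, and near Pnlip (Score 19), the pancreatic lipase, were also among these 10. At equal length, the lost peaks of low input with the highest Scores lay at Cflar (Score 35), an inhibitor of caspase 8, Tle2 (Score 35), a corepressor, and Smad1 (Score 26), a mediator of BMP signaling. The Cflar and Smad1 promoters each had a day 6 peak in the full list, of Score 12, and the Tle2 peak was not lost at full length either. So these peaks were lost at equal length alone.

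A gene was given a promoter peak when a peak overlapped the promoter of any of its transcripts. Of 20021 autosomal protein-coding genes, 4922 had one in both lists (24.6%), 8683 at day 6 alone (43.4%), 91 in vehicle alone (0.455%) and 6325 in neither (31.6%). So 98.2% of the 5013 genes with a vehicle promoter peak also had one at day 6. At equal length 3659 had one in both (18.3%), 5146 at day 6 alone (25.7%) and 1354 in vehicle alone (6.76%), of which 1263 had a day 6 promoter peak in the full list. These shares are the background for every gene list below. In every list but that of liver and pancreas genes, the members in vehicle alone at equal length all had a day 6 promoter peak in the full list. With the day 6 list cut by normalized tag count instead of Score, 147 genes were in vehicle alone.

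Among the genes with a promoter peak in both lists, the peak with the highest Score over all starts of a gene was taken in each list. The peaks compared could therefore lie at different starts of a gene, here and in the gene lists below, and such genes were not set apart. In vehicle this peak had a median of 18.9 tags per 10 M and 831 bp. At day 6 it had a median of 183 tags per 10 M and 2372 bp. Tags per kb of peak were 20.7 and 66.8 by median, and 4849 of 4922 genes had the denser peak at day 6 (98.5%). The share of all tags in peaks differed in the same direction, 7.74% and 46.8%, and its part in the densities was not tested. The 8683 genes with a promoter peak at day 6 alone had a median of 64 tags per 10 M, below the 183 of genes in both. The highest Scores among them were at Gnai3, described above, and Abi1 (Score 188), an actin regulator of the WAVE complex.

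Promoters in vehicle alone with the highest Scores were Trpm8 (chr1:88306135-88308494, 58.9 tags per 10 M), 4931408C20Rik, and Cnst and Tfb2m, which share 1 peak of 634 bp and 22.9 tags per 10 M. Tfb2m encodes a mitochondrial transcription factor. Terf2, a telomere-binding protein, had a vehicle peak of 823 bp and 17.8 tags per 10 M. Med16, a Mediator subunit, had 13.8 tags per 10 M.

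The tissue label was checked against markers. All 7 genes fixed as defining of myofibers (Acta1, Ckm, Myh4, Mylpf, Tnnt3, Ryr1 and Atp2a1) had a promoter peak in both lists. Of 12 genes of liver and pancreas, plasma proteins and digestive enzymes among them, 9 had none in either list, Apoa2 and Cela1 had one at day 6 alone and Apoh had one in vehicle alone. Over all genes, 25% had a promoter peak in vehicle and 68.0% at day 6, and the counts for markers of other cells of muscle are read against these shares. Endothelial markers had a promoter peak for 4 of 10 in vehicle and 10 of 10 at day 6, with Pecam1 at 8.72 and 415 tags per 10 M. Fibroblast markers had one for 1 of 10 (Dcn, with 8.36 and 8.16 tags per 10 M) and 8 of 10, macrophage markers for 0 of 10 and 3 of 10, satellite cell markers for 0 of 8 and 5 of 8, and smooth muscle and pericyte markers for 0 of 8 and 8 of 8. For adipocyte markers it was 0 of 8 and 2 of 8, with Adipoq and Plin1 in neither, and for Schwann cell markers 2 of 8 and 6 of 8. Ptprc, the pan-leukocyte marker, Pax7, the satellite cell marker, and Col3a1 had none in either list.

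The summed tags per 10 M of the best promoter peaks were 63.2 in vehicle and 2364 at day 6 for endothelial markers, and 8.36 and 1173 for fibroblast markers. For macrophage markers they were 0 and 311, for satellite cell markers 0 and 1136, for smooth muscle and pericyte markers 0 and 1271, for adipocyte markers 0 and 178, and for Schwann cell markers 33.1 and 784. For the sarcomere list they were 770 and 11531, and over all genes 123003 and 2192855. The part of other cell types in the gained peaks was not tested. In these sums a promoter without a called peak counts as 0. More cells of a type, more H3K27ac per cell and differences between immunoprecipitations cannot be told apart in these lists.

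Sarcomere genes, which build the contractile apparatus, had a promoter peak in both lists for 19 of 31 (background 24.6%). At day 6 alone it was 9 (background 43.4%). Tnnc1, the troponin C of slow fibers, had a vehicle peak of 638 bp with 11.6 tags per 10 M and a day 6 peak of 3174 bp with 296. Myh4, the myosin of the fastest fibers, had its vehicle peak over 2672 bp with 45.4 tags per 10 M and its highest-Score day 6 peak over 756 bp with 23.5. Des, the intermediate filament desmin, had 38.5 and 391 tags per 10 M. Tpm3, the slow tropomyosin, had a peak at day 6 alone (8884 bp, 598 tags per 10 M), as did Actn2, an alpha-actinin of the Z-disc (1165 bp, 41.5), Myom2, the M-protein (8203 bp, 336), and Tpm2 (7852 bp, 496). Myh1, Myh7 and Mybpc1 had none in either list. At equal length 13 had one in both, 5 at day 6 alone and 6 in vehicle alone (background 6.76%). These 6 all had a day 6 promoter peak in the full list, which the cut by Score left out.

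Calcium-handling genes had a promoter peak in both lists for 14 of 19 (background 24.6%) and at day 6 alone for 4 (background 43.4%). Sln, sarcolipin, had none. Those at day 6 alone were Atp2a2, the slow-fiber calcium pump (chr5:122500991-122503173, 72.8 tags per 10 M), Cacna1h, a T-type calcium channel (38.9), Stac3, which couples excitation to calcium release (14556 bp, 305), and Casq2, the calsequestrin of slow and cardiac muscle (24.8). Casq1, the fast-fiber calsequestrin, had 80.3 tags per 10 M in vehicle and 362 at day 6. Pvalb, the calcium buffer parvalbumin, had 26.5 and 738, over 1582 and 19754 bp. Cacng1, a calcium channel subunit, had 22.5 and 152. With the lists cut to equal length, 9 had a promoter peak in both, 3 at day 6 alone and 5 in vehicle alone.

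Regulators of the myogenic program had a promoter peak in both lists for 13 of 15 (background 24.6%). Myog, myogenin (chr1:134289375-134293268, 197 tags per 10 M), and Myf5 (652 bp, 9.8 tags per 10 M) had one at day 6 alone (background 43.4%). Tead1, a transcription factor of the Hippo pathway, had 29.8 and 182 tags per 10 M. Myf6, the myogenic factor of mature fibers, had 22.5 and 129. With equal lists these counts were 11 in both, 1 at day 6 alone and 2 in vehicle alone.

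Of the 25 listed glucocorticoid targets, 24 were autosomal. They had a promoter peak in both lists for 15 of 24 (background 24.6%) and at day 6 alone for 9 (background 43.4%). The day 6 peak with the highest Score among those at day 6 alone lay at Pdk4 (chr6:5495883-5498218, Score 128, 195 tags per 10 M), the kinase that restrains glucose oxidation. Mt2, a metallothionein (190 tags per 10 M), Fkbp5, a GR cochaperone (60.7), and Dusp1, a MAP kinase phosphatase (13966 bp, 734), also had one at day 6 alone. Cebpd, a transcription factor of the C/EBP family, had 110 tags per 10 M in vehicle and 618 at day 6, where its Score was 132. The atrophy gene Fbxo32 had 25.8 and 383 tags per 10 M, and Sesn1, a stress-induced inhibitor of mTORC1, had 40.7 and 211. At equal length 12 had one in both, 3 at day 6 alone and 3 in vehicle alone (backgrounds 18.3%, 25.7% and 6.76%). Per1, a clock gene and GR target, was picked after its values were seen. It was in vehicle alone at equal length, with 212 tags per 10 M in vehicle and a day 6 peak of 24927 bp and 1842 tags per 10 M whose Score of 11 fell below the limit of 15.

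Steroid receptors and their cofactors had a promoter peak in both lists for 9 of 17 (background 24.6%) and at day 6 alone for 7 (43.4%). Nr3c1, which encodes GR, had 37.1 tags per 10 M in vehicle and 394 at day 6, and it was the nearest gene of 54 gained and 11 lost peaks. Nr3c2, the mineralocorticoid receptor (265 tags per 10 M), Crebbp, the acetyltransferase CBP (115), and the coactivator Ncoa1 (68.9) had a promoter peak at day 6 alone. Nrip1, a corepressor of lipid genes, had 17.4 and 189. Cut to equal length, the counts were 8 in both, 4 at day 6 alone and 1 in vehicle alone.

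Lipid metabolism genes had a promoter peak in both lists for 20 of 40 and at day 6 alone for 19, against backgrounds of 24.6% and 43.4%. At equal length 11 had one in both, 13 at day 6 alone and 9 in vehicle alone. Chpt1, of phosphatidylcholine synthesis (Score 74, fold over input 49.4), Ppargc1b, a coactivator of oxidative genes (453 tags per 10 M), Acaa2, a thiolase of beta-oxidation (269), and Pparg (123) were the first 4 at day 6 alone by Score. Among those in both, Pnpla2, the triglyceride lipase ATGL, had a vehicle peak of 1997 bp with 60.0 tags per 10 M and a day 6 peak of 24710 bp with 2188. Lipe, hormone-sensitive lipase, had 45.1 and 1162 over 2445 and 22181 bp. Acadm, the medium-chain acyl-CoA dehydrogenase, had 28.0 and 140, and Hadha, of the trifunctional protein, had 42.9 and 324. By median, the lipid genes in both lists were 2.92 times as dense in tags per kb at day 6 as in vehicle, against 3.24 times over all genes in both.

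IGF1/PI3K and insulin genes had a promoter peak in both lists for 11 of 26 (background 24.6%) and at day 6 alone for 15 (background 43.4%). At equal length these were 6 and 9, with 5 in vehicle alone. Mtor, the growth kinase (111 tags per 10 M), Rictor (117) and Rptor (67.9), the defining subunits of its complexes, and Igf1r, the IGF1 receptor (151), had one at day 6 alone. Irs2, an insulin receptor substrate, had 12.7 and 385 tags per 10 M and was the nearest gene of 51 gained peaks. Rps6kb1, the S6 kinase, had 24.0 and 110, and Gsk3b, which AKT inhibits, had 48.7 and 266. The density ratio was 2.86 by median.

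Genes of glycolysis and glycogen had a promoter peak in both lists for 13 of 17 (background 24.6%). It was 10 of 17 for clock genes and 19 of 20 for housekeeping genes. At equal length they had one in both for 11, 6 and 12, and in vehicle alone for 2, 4 and 7. Pfkm, the muscle phosphofructokinase, had 24.3 tags per 10 M in vehicle and 282 at day 6, where its Score was 140, at different starts. Gapdh, an enzyme of glycolysis, had 51.6 and 760. Hk2, hexokinase 2, had a peak at day 6 alone that spanned 29989 bp with 1148 tags per 10 M. Among clock genes, Nr1d1, the repressor REV-ERB alpha, had 83.6 and 1276, and Rora, Bhlhe41 and Nr1d2 had a promoter peak at day 6 alone. The housekeeping gene Sdha, a subunit of succinate dehydrogenase, had 12.4 and 131 tags per 10 M. The housekeeping density ratio was 3.47 by median, above the ratios of the sarcomere (2.24), calcium-handling (1.87), glucocorticoid (3.04) and lipid lists.

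**Figure D4:**
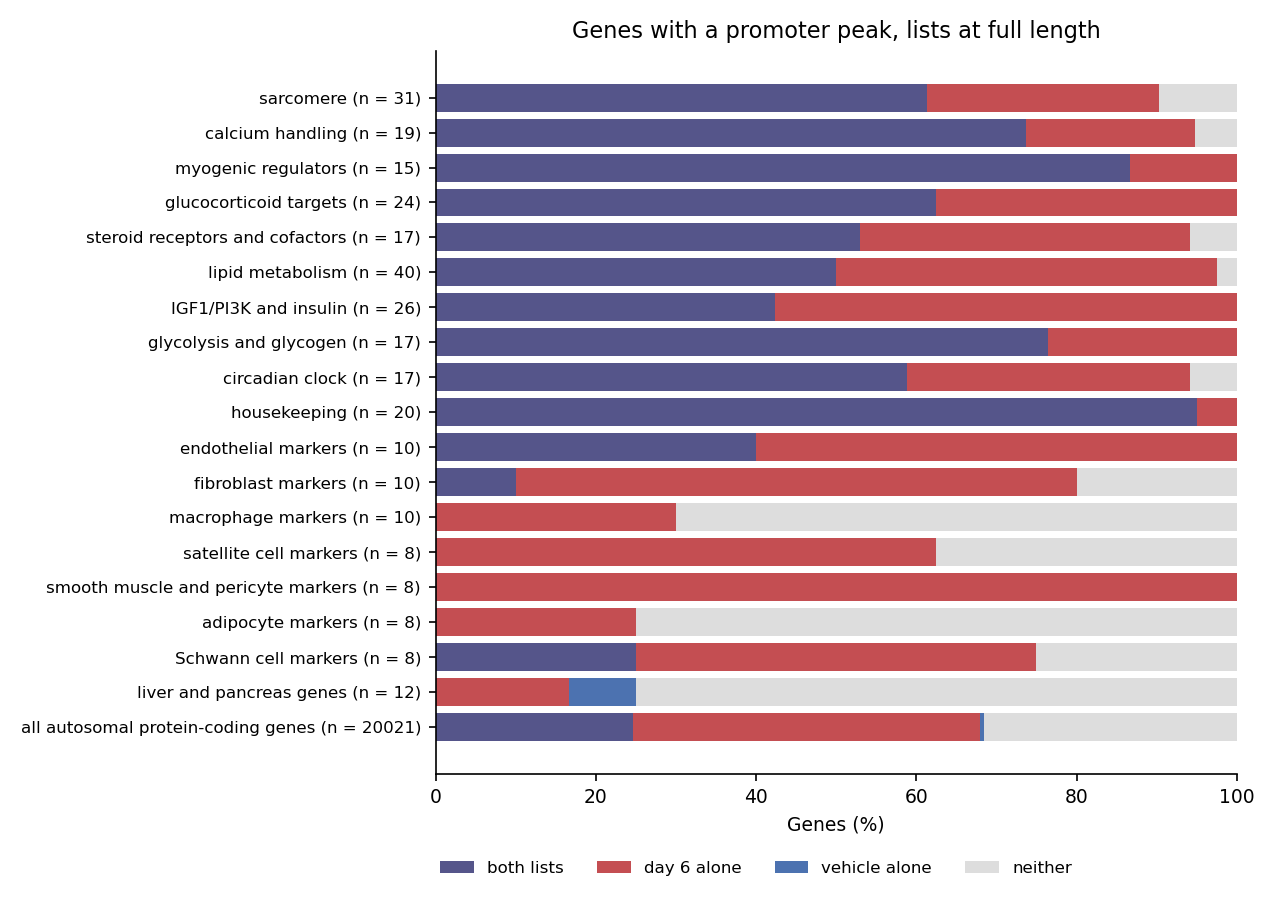
Percentage of the genes of each list (x axis) with a promoter peak in both lists, at day 6 alone, in vehicle alone or in neither, at full list length. The bottom bar gives all 20021 autosomal protein-coding genes, with 24.6%, 43.4%, 0.455% and 31.6%, and among the lists above it vehicle alone holds 1 gene, of the liver and pancreas list.

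The nearest protein-coding start lay a median of 23.2 kb from gained peaks, 6.54 kb from kept day 6 peaks and 64.6 kb from lost peaks. Gained peaks were nearest to 15539 of 20021 genes (77.6%), with a median of 3 per gene. Glucocorticoid targets had a gained peak nearest to them for 23 of 24, with a median of 10. Higher medians were found for endothelial markers (10 of 10, median 16.5), steroid receptors and cofactors (16 of 17, 13) and Schwann cell markers (8 of 8, 12). Lipid genes had one for 37 of 40, with a median of 5, and liver and pancreas genes for 5 of 12. In the lists not named here the median was 8.5 or less. The most gained peaks were nearest to Med13l (115), a Mediator subunit, Rora (105), a nuclear receptor of the clock, Mn1 (88), Sulf2 (84), a heparan sulfatase, and Arid1b (83), a chromatin remodeler. Zfp36l1 (83), Foxn3 (82), Zfhx3 (82), Foxp1 (81) and Agap1 (80) followed. The counts were not scaled to the distance between neighboring starts.

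Gained peaks were spread over all 19 autosomes. They made up 87.0% of day 6 peaks on chromosome 3 and 91.5% on chromosome 5, the lowest and highest shares. Their number per Mb ran from 27.6 on chromosome 3 to 70.1 on chromosome 11. Lost peaks made up between 44.4% of vehicle peaks on chromosome 11 and 68.1% on chromosome 3.

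The genes that the study examined by GR ChIP showed several patterns. At Akt1 both day 6 peaks within 10 kb of a start were gained and vehicle had none. At Pik3c2a, a class II PI3K, the promoter was kept with 47.6 tags per 10 M in vehicle (chr7:116442637-116445487) and 197 at day 6 (chr7:116442711-116445368), and 4 vehicle peaks of 500 to 669 bp within the gene were lost. At Pik3ca, the catalytic subunit p110 alpha, the promoter was kept with 25.4 and 196. At Cacna1h, 19 gained peaks lay over the gene and vehicle had none. At Tnnt1, the slow troponin T, the promoter peak was at day 6 alone (761 bp, 15.3 tags per 10 M), while a kept day 6 peak 10.6 kb from that start held 422 over 9001 bp.

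At Slc27a1, a fatty acid transporter, a vehicle peak of 500 bp with 7.99 tags per 10 M lay under a day 6 peak of 6231 bp with 246. Its day 6 Score of 11 left it outside the list of equal length. At Cidec, a lipid droplet protein, no promoter peak was present, and 4 gained peaks lay within 10 kb, the largest at chr6:113441951-113443464 with 90.1 tags per 10 M. At Cidea, a related protein, 2 gained peaks and 1 lost peak lay within 10 kb of a start. At Esr1, estrogen receptor alpha, 4 gained peaks lay within 10 kb of a start, beside 2 kept day 6 peaks and 1 lost vehicle peak. The kept peak upstream of Tnnc1, whose sequence is shown above, lay 0.480 kb from the start. Within Fkbp5, 17 gained peaks lay beside 3 kept day 6 peaks, of which the one shown above (chr17:28419523-28423227) had 180 tags per 10 M. The vehicle peak that overlapped it had 18.9 (chr17:28419749-28420676), and at both genes the sequence shown lay outside the vehicle peak.

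Gained peaks were richer in G+C than lost peaks. The 500 bp windows on peak centers had a median G+C of 51.4% for gained, 50.8% for kept day 6 and 40% for lost peaks, beside 41.8% for all 4791480 such tiles of the autosomes. The GR motif ACANNNTGT was present in 13.8% of gained (13.6%–14.0%), 12.4% of kept day 6 and 18.2% of lost windows, beside 16.0% of all tiles. TGANTCA was present in 13.7%, 13.1% and 16.6%, beside 14.4%. AAGGTCA was present in 10%, 9.43% and 9.20%, beside 9.26%, and CANNTG in 94.5%, 88.9% and 93.4%, beside 93.1%. The MEF2 consensus was present in 0.639% of gained (0.593%–0.688%), 1.68% of kept day 6 (1.47%–1.92%) and 1.64% of lost windows, beside 1.09% of tiles. Outside promoters the MEF2 shares were 0.650% of gained and 1.87% of kept day 6 windows. Both strands were searched, and no motif contained another. The part of G+C in these shares was not tested.

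Many gained peaks were also peaks of other lists, and lost peaks rarely were. Of gained peaks, 36.2% were also found in the female list of day 8, 20.9% in that of day 4 and 24.5% in the male vehicle list. In the male lists of days 4, 6 and 8 these shares were 3.99%, 5.47% and 4.11%. At least 1 of the 6 lists held 50.5% of gained peaks (50.2%–50.8%), 95% of kept day 6 peaks and 15.2% of lost peaks. At equal length it was 73.2% of gained and 29.9% of lost peaks. The lists differ in length, and the female comparisons share the vehicle list, so peaks gained here were by construction absent from it.

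**Figure D5:**
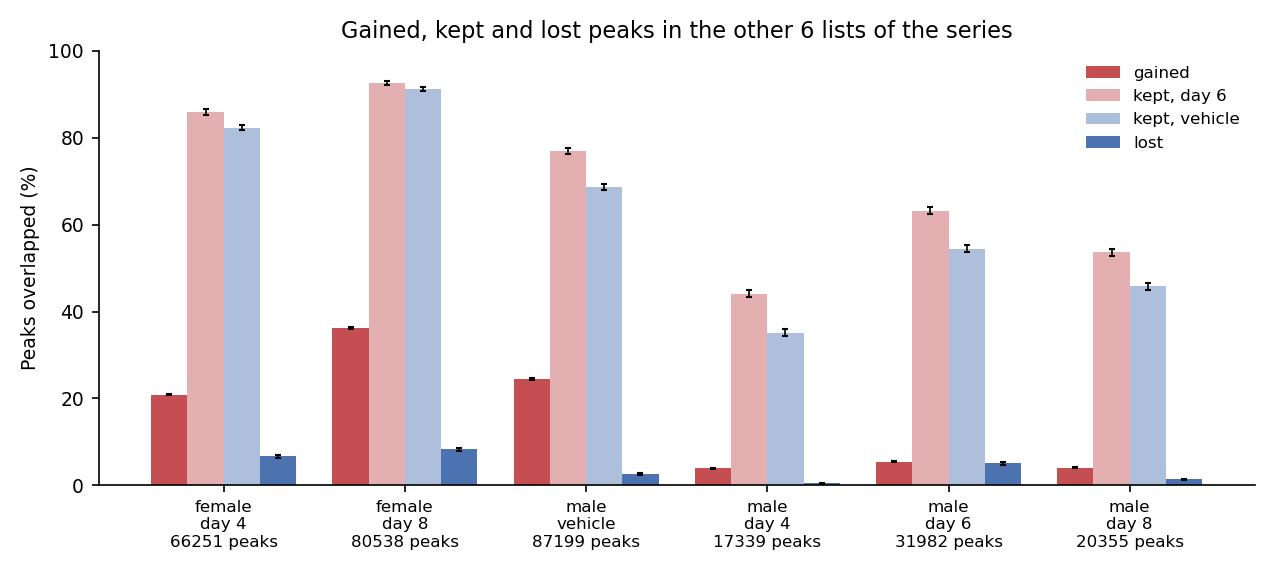
Percentage of gained, kept and lost peaks (y axis) overlapped by a peak of each of the other 6 lists (x axis, with the number of autosomal peaks in each list), with Wilson 95% intervals. Kept peaks are highest in every list, gained peaks reach 36.2% in the female day 8 list, and lost peaks stay at or below 8.33%.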

How the data were processed

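H3K27ac ChIP-seq was done on quadriceps myofibers, with 2 libraries and 1 input per group. The authors aligned reads to mm10 with Bowtie2 (2.2.6 in the submitters' processing notes) and called 1 peak list per group with HOMER findPeaks in histone mode, at 2-fold or more over input. How the 2 libraries were combined is not given in the sources used here. The deposited lists hold a normalized tag count per 10 M tags, which is a signal per peak, an input tag signal, a findPeaks Score, and a fold over input, which is a ratio. Depths were recovered from the steps of the normalized tag counts. Input tags were as counted in the vehicle list and scaled to H3K27ac depth at day 6, so they were not compared between lists. Total tags at day 6 were deposited as counts.

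Peaks of the 19 autosomes were compared by 1 bp overlap. Equal length kept the 37614 peaks with the highest Score, ties ordered by normalized tag count. Classes came from the peak center and 45756 curated RefSeq transcripts of GRCm38.p6, a promoter being the 1 kb upstream and 100 bp downstream of a start. Termination sites ran from 100 bp before to 1 kb after a transcript end. Named genes were, per list and promoter state, up to 4 by Score, over all genes the 10 promoters of each state and the 10 gained and lost peaks by Score, with and without input density above the 99th percentile, the 10 genes with most gained peaks, and the autosomal genes of the study's ChIP. Some genes that this rule picks are not reported here. Members and lists were chosen with earlier results of these data known. Python 3.11.15, pandas 2.3.3, numpy 2.4.6, pysam 0.24.0, matplotlib 3.10.9 and bedtools 2.31.1 were used. On simulated lists of 2236 and 1638 peaks, 8 of 8 checks were recovered. Alternatives were other list lengths, overlaps, fold minimums, chromosomes and promoter windows.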

Additional observations from a re-analysis of the deposited data

Results flagged for a closer look

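The day 6 list held 3.23 autosomal peaks per vehicle peak in females (121551 and 37614) and 0.367 in males (31982 and 87199), so the lists differed in opposite directions in the sexes. Each value rests on 1 list per group, and the difference between the sexes was not tested.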

How the results depend on the processing

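With 1 list per group, no alternative carries a test. Of the values under alternatives for the main results, 29 moved by less than their counting interval or 1.5 times and 45 moved more. Changes of direction were not scored. The values below are in the order of gained peaks, percent gained, percent lost, percent of gained and of lost peaks at promoters, and genes with a promoter peak at day 6 alone and in vehicle alone. At equal length by Score they were 29537, 78.5%, 74.4%, 7.07%, 3.66%, 5146 and 1354, and with the 10000 highest Scores 7757, 77.6%, 75.4%, 19.5%, 13.5%, 3466 and 1563. With 50% of a peak covered, 97.3% were gained, 65.0% lost, and promoters held 4.85% and 1.40%. With any peak within 1 kb, 85.8% were gained and 51.4% lost, with 0.497% of lost peaks at promoters. At a fold of 4 or more, 86.8% were gained, 63.4% lost, and 4.95% of gained peaks were at promoters. On all chromosomes 60.4% were lost. With promoters from 2 kb before to 500 bp after, the promoter shares were 7.69% and 1.97%, with 161 genes in vehicle alone. The next 3 alternatives were chosen after seeing the data. At equal length by normalized tag count, 26933 were gained (71.6%), 64.9% lost, promoters held 9.32% and 0.848%, and 147 genes were in vehicle alone. At equal length by fold over input these were 28393 (75.5%), 69.1%, 8.18%, 1.02% and 186. Among peaks wider than 500 bp, 63458 were gained and 30.7% lost, promoters held 6.25% and 1.41%, and 34 genes were in vehicle alone. The causes of the moves were not tested. No paired analysis was possible because each group has 1 peak list and the lists carry no replicate columns.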

Other observations

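A stretch of 95.8 kb on chromosome 1 (chr1:88212658-88308494), singled out after its values were seen, held 4 of the 10 lost peaks of low input with the highest Scores, those nearest to Ugt1a1, Hjurp and, with 2, Trpm8. It held 17 vehicle peaks, of which 12 were lost, and 16 day 6 peaks, of which 11 were gained. The 17 vehicle peaks held 306 input tags together. The 16 day 6 peaks held 1540, scaled to H3K27ac depth, so the sums are not comparable. Over the vehicle list the median was 1 input tag per peak, which is a value for single peaks and not for a sum. The female day 4 and day 8 lists held 12 and 13 peaks there. In males, the vehicle, day 4, day 6 and day 8 lists held 20, 5, 17 and 8.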
